A study of Mus musculus with 29 samples.

Results

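Transcription factor genes of the lymphoid lineage, namely Ikzf1, Ikzf2, Tcf7, Lef1, Satb1, Bach2, Ets1, Bcl11a and Bcl11b, were followed by whole-genome methyl-sequencing (WGMS) of mouse lung. Their members were the windows that the deposited table names for 1 of these genes, which gave 296 of 260686 windows. Bach2 had 85 windows, Bcl11b 41, Lef1 37, Satb1 28, Ets1 28, Bcl11a 26, Ikzf2 24, Ikzf1 17 and Tcf7 10. A window holds a run of CpG sites, with a median of 50 CpG dinucleotides, and its value is the %DNAm score, the mean percentage of methylated calls over its cytosines. The median member window was 3698 bp long, against 4787.5 bp for all windows, and 94 of the 296 held exonic bases of their gene.

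The lungs came from Balb/c offspring aged 13 weeks that the series describes as female. Dams of the Sham groups received saline and dams of the PM groups received PM2.5 (fine airborne particulate matter) by the nose before mating, through gestation and until weaning. Sham-OVA and PM-OVA offspring were sensitised and challenged with ovalbumin (OVA), an egg protein that induces allergic airways disease, whereas Sham and PM offspring received saline. The Sham, Sham-OVA and PM groups held 7 libraries each and the PM-OVA group 8, each library from a homogenate of a right lung lobe. By the study's methods the offspring were never exposed to PM2.5 directly, but were exposed to those of its components that enter milk. By the same methods lungs were collected after a lung function test in all groups. In whole lung a different mix of cells and a different methylation within a cell type cannot be told apart.

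Lymphocytes are made from progenitors through a series of choices, each held in place by DNA-binding proteins. Ikaros (Ikzf1) is needed for the lymphoid lineage itself, and Helios (Ikzf2) is its relative in regulatory T cells. TCF-1 (Tcf7) and LEF-1 (Lef1) act with beta-catenin in T cell development, BCL11B commits thymocytes to the T cell fate and BCL11A is required for B cells. ETS1 acts in T, B and natural killer cells and in endothelium, SATB1 folds chromatin in thymocytes, and BACH2 represses effector programmes in naive and regulatory lymphocytes. In most tissues active promoters rich in CpG are unmethylated, while gene bodies are mostly methylated and regulatory elements within introns can lose methylation in the cells that use them.

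The sequences below are the 200 bases with the most CpG dinucleotides within 8 of the 10 windows that were called with the 10-point minimum after OVA in either kind of offspring, and they are shown so that the sites behind the percentages can be seen. Those of the Bach2 windows from 32254624 and from 32518432 are not printed. The bases were read from GRCm38 on the strand of the gene, with each CpG in capitals. The falls and rises named are those of the whole window, as the values do not resolve these 200 bases.
Ikzf1 intron 1, chr11:11691481-11691680 (plus strand, 8 CpG, in the window with the largest fall): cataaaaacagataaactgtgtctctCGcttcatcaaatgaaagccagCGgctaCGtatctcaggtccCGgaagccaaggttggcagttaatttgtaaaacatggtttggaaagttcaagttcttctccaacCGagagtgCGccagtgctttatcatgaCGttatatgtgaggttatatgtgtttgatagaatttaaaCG
Ikzf1 intron 1, chr11:11693304-11693503 (plus strand, 6 CpG, in the next window): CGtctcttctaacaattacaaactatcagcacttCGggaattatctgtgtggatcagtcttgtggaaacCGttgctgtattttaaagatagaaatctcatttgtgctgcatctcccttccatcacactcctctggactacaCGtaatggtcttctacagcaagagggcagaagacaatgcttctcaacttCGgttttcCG
Bach2 intron 1, chr4:32249799-32249998 (plus strand, 14 CpG, fell): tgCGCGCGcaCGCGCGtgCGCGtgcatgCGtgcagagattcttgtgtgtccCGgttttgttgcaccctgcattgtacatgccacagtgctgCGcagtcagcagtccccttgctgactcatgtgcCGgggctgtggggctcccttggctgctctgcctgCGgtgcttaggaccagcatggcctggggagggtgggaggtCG
Bach2 intron 3, chr4:32426561-32426760 (plus strand, 13 CpG, fell): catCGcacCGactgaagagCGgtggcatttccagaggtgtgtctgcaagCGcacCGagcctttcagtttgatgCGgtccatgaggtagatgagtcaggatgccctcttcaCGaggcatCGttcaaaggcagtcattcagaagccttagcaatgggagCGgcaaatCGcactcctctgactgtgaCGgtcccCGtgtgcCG
Bach2 intron 1, chr4:32305367-32305566 (plus strand, 10 CpG, rose): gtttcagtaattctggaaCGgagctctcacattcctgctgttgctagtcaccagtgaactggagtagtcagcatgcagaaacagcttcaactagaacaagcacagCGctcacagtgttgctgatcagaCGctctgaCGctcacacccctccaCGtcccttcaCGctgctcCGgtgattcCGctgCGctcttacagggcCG
Ets1 intron 1, chr9:32717343-32717542 (plus strand, 7 CpG, rose): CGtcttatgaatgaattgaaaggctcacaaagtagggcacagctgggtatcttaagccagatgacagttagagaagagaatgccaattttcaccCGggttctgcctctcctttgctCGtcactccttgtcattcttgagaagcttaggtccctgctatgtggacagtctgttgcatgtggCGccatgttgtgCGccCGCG
Bcl11a intron 1, chr11:24081930-24082129 (plus strand, 18 CpG, fell): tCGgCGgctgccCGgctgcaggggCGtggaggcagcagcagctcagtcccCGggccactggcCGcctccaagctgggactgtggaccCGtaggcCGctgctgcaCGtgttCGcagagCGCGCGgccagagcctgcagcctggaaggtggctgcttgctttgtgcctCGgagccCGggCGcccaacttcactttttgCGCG
Bcl11a intron 2, chr11:24131268-24131467 (plus strand, 7 CpG, fell): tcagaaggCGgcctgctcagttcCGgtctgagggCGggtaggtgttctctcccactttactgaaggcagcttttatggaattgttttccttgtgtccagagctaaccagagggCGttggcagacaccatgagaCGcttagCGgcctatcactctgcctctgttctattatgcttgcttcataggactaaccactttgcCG

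Before the comparisons, a single library had to be set apart. Sham replicate 1 had values in 1224 windows of the Y chromosome, against 29 to 46 in the other libraries, and 5.96% of its X chromosome windows lay under 10%, against 0.268 to 0.488% elsewhere, which goes against the label of a female. The members are all autosomal. It stayed in its group, and values without it are given where they change a call. Without it the OVA difference in Sham offspring moved by at most 0.581 points over the 23 windows of these genes that were chosen by the naming rule. Mean methylation over all windows ranged from 67.8 to 70.2% across the 29 libraries, and that over the member windows from 65.3 to 67.9%. Member windows had a value in every library. The study describes high average genome coverage for each library, but read counts and coverage per window are not in the values used here, so that precision rests on the number of libraries.

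OVA changed the methylation of these genes in both directions, with losses more frequent than gains. A differentially methylated region (DMR) was a window with a limma adjusted p under 0.05 over 259167 tested windows and at least 10 percentage points between the group means. After OVA, 9 of the 296 windows were DMRs in Sham offspring, 7 lower and 2 higher, while 0.775% of all tested windows were DMRs (0.479% higher and 0.296% lower). In PM offspring 8 were DMRs, 6 lower and 2 higher, while 0.584% of all tested windows were (0.263% higher and 0.321% lower). They lay in 4 genes, namely Ikzf1, Bach2, Ets1 and Bcl11a, and 7 of the 10 windows with a call were DMRs in both kinds of offspring. Without Sham replicate 1 the count in Sham offspring was again 9, but the Bcl11a window from 24081908 left it (-9.96 points) and the Bach2 window from 32304977 entered it (10.04 points). By the study's methods its own p threshold was stricter. With an adjusted p under 1e-06 the counts were 6 and 7, against 0.398 and 0.355% of all tested windows.

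Smaller differences were far more common. Without the minimum difference, 145 member windows passed in Sham offspring, 55 higher and 90 lower, where the background was 35.6% of all windows (13.3% higher and 22.3% lower). In PM offspring 160 passed, 36 higher and 124 lower, against 44.1% of all windows (9.26% higher and 34.8% lower). Counts of rises and falls for single genes below are to be read beside these shares of all windows. The median difference over the member windows was -0.52 and -1.25 points in Sham and PM offspring, respectively, and over all tested windows it was -0.41 and -1.03 points. When each library was centred on its own median, which removes such a general shift of -0.40 and -0.98 points, 63 windows were higher and 71 lower in Sham, and 60 higher and 84 lower in PM offspring. The share of higher windows among those that passed then went from 37.9 to 47.0% and from 22.5 to 41.7%. It was 50.7 and 50.3% among all centred windows that passed. Windows whose challenged and unchallenged libraries did not overlap numbered 49 in Sham and 58 in PM offspring, where 8.59% and 12% of all windows were so separated.

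**Figure D1:**
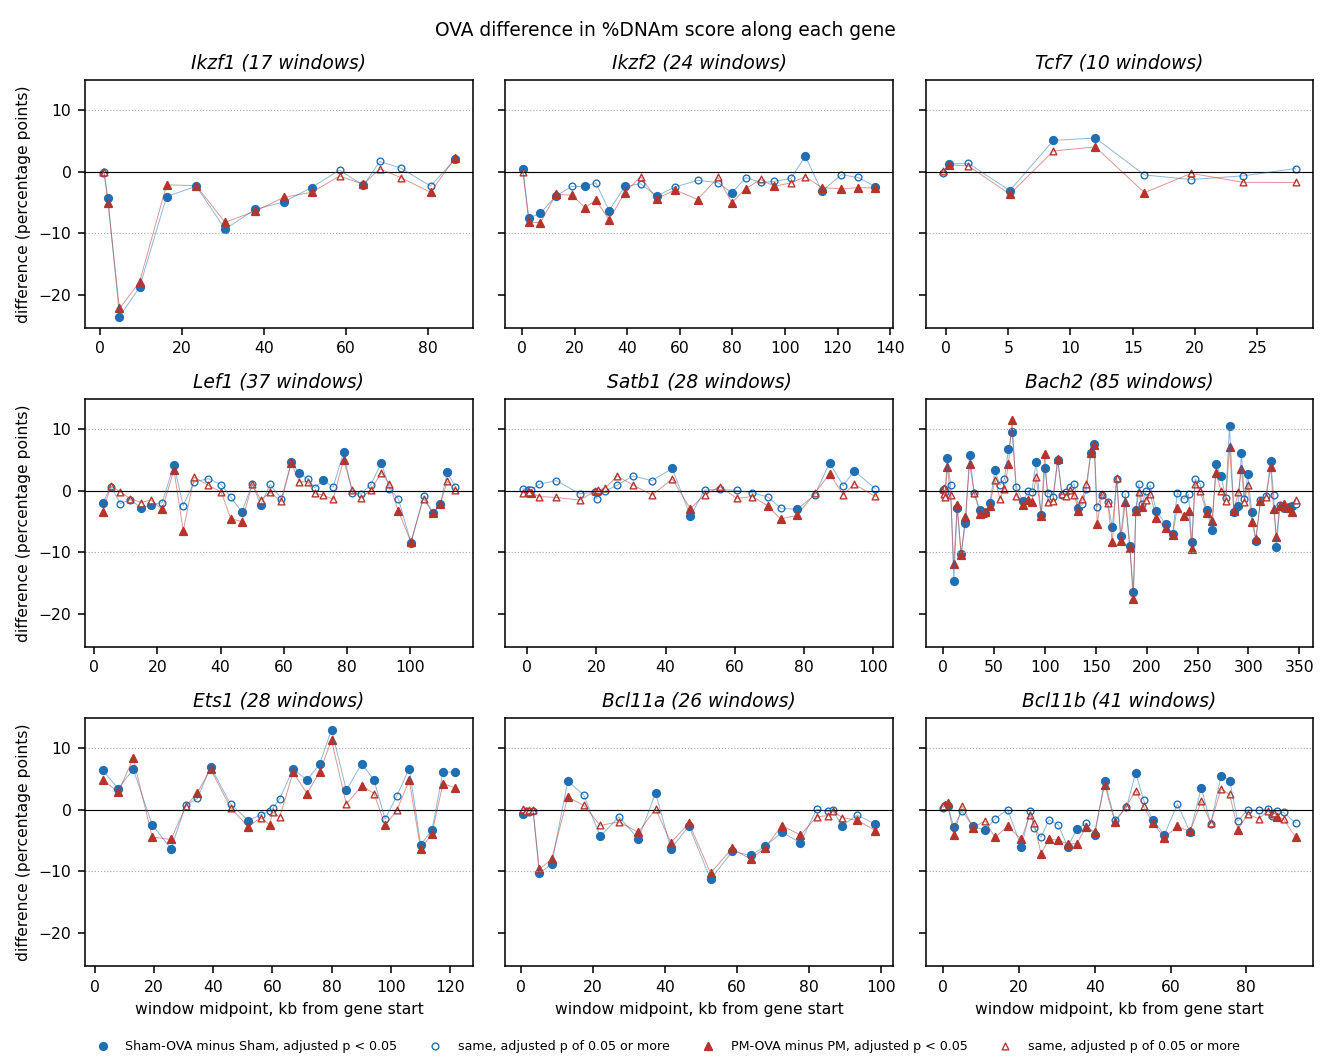
Difference in %DNAm score after OVA (percentage points) against the distance of the window midpoint from the gene start (kb), for each gene. Circles are Sham-OVA minus Sham, triangles PM-OVA minus PM, filled symbols have a limma adjusted p under 0.05, and dotted lines mark the 10-point minimum. The deepest fall is in Ikzf1 at -23.5 and -22.2 points, and the highest point of Ets1 is at 13.1 and 11.3 points.

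Ikzf1, which encodes Ikaros, had the largest loss. The window on chromosome 11 from 11687730 to 11691868, inside intron 1 and without exonic bases in the GENCODE annotation, ranged from 59.8 to 64.6% in Sham (median 62.0%) and from 32.4 to 50.6% in Sham-OVA (median 38.0%). In PM it ranged from 57.6 to 65.3% (median 60.7%) and in PM-OVA from 33.6 to 45.8% (median 38.3%). Every challenged library lay below every unchallenged library of its kind. The means were 62.0% ± 1.65 (SD, n = 7) and 38.5% ± 5.76 (SD, n = 7) in Sham and Sham-OVA, which differ by -23.5 points (log2 ratio -1.36, SE 0.12, limma adjusted p = 3.86e-09). They were 60.9% ± 3.02 (SD, n = 7) and 38.7% ± 4.02 (SD, n = 8) in PM and PM-OVA, which differ by -22.2 points (log2 ratio -1.28, SE 0.11, limma adjusted p = 2.96e-09). Without Sham replicate 1 the difference in Sham offspring was -23.3 points.

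The loss in Ikzf1 went on into the neighbouring windows. The next window, from 11691985 to 11697385, also in intron 1 and overlapping the gene Gm12000, had medians of 63.3% in Sham and 46.0% in Sham-OVA, and of 63.9% in PM and 46.8% in PM-OVA, again with no overlap (-18.8 points, limma adjusted p = 9.43e-10, and -17.9 points, limma adjusted p = 6.74e-10). On the side of the promoter, the window from 11686251 to 11687706, which holds exon 1, went from 10.6 to 6.28% in Sham and from 11.4 to 6.42% in PM offspring. Within intron 3 the window from 11712080 fell in both kinds of offspring, with differences of -9.30 and -8.20 points, as did that from 11719271 at -6.10 and -6.38 points. The 2 most upstream windows, from 11685574 and from 11685843, stood under 1% in all groups. At the other end of the gene, the window from 11769340 that holds the end of exon 8 rose by 2.02 and 2.31 points. In all, 10 of the 17 Ikzf1 windows fell and 1 rose in Sham, and 11 fell and 1 rose in PM offspring. With centred libraries 7 fell and 1 rose in Sham, and 6 fell and 1 rose in PM offspring.

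The window with the largest fall also holds a RefSeq promoter. RefSeq (GRCm38.p6) places 1 of 2 listed Ikzf1 starts there, with the promoter from 250 bases before to 50 after the start at chr11:11689927-11690226. The promoter has only 2 CpG in 300 bases, whereas that of the upstream start at 11685675 to 11685974, which lies across both unmethylated windows, has 52.
Ikzf1 promoter within the window, chr11:11689927-11690226 (plus strand, CpG in capitals): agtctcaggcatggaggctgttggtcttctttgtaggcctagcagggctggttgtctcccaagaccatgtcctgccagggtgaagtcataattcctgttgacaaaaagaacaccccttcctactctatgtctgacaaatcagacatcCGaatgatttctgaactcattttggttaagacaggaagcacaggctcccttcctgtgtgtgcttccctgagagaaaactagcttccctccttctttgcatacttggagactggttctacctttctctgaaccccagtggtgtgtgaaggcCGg

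**Figure D2:**
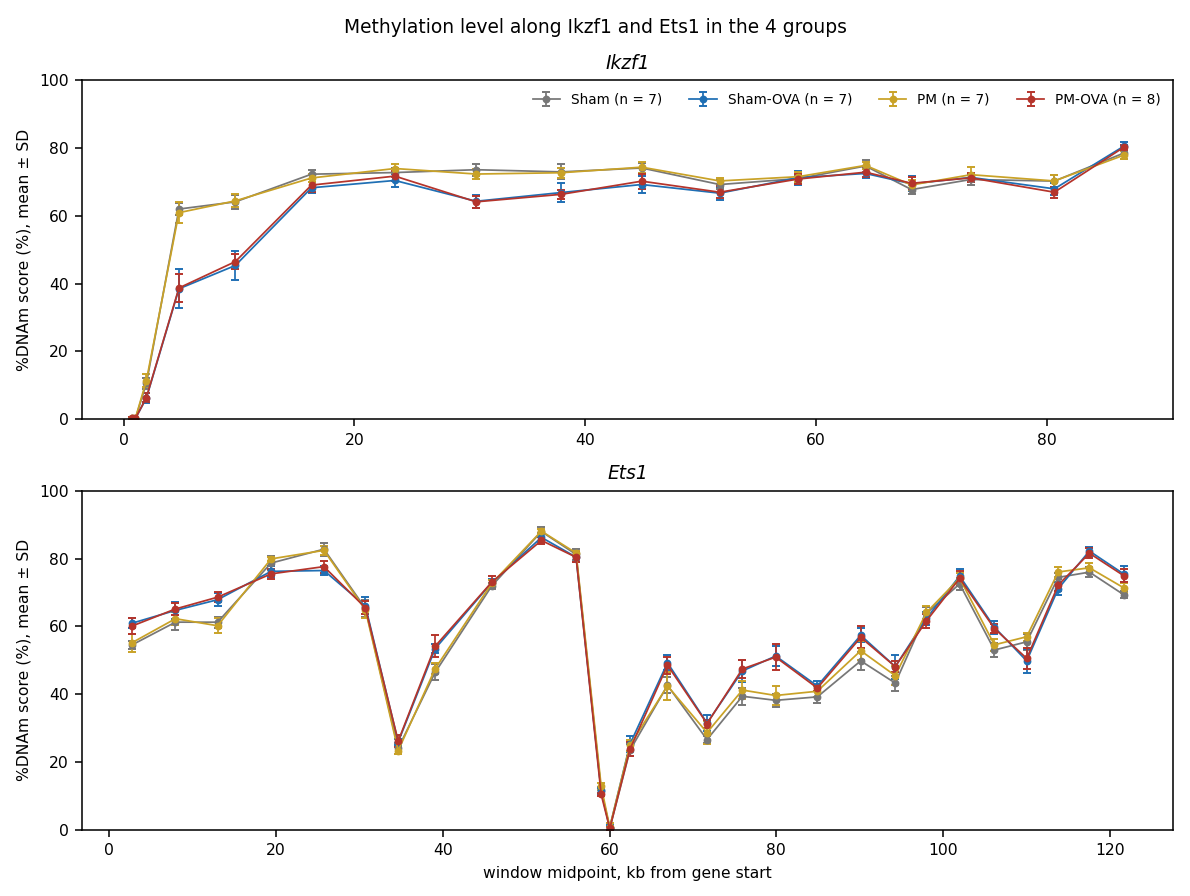
Mean %DNAm score ± SD of each window of Ikzf1 (top) and Ets1 (bottom) against the distance of its midpoint from the gene start (kb), for Sham, Sham-OVA, PM (n = 7 each) and PM-OVA (n = 8). In Ikzf1 both challenged groups fall away from both unchallenged groups in the windows at -23.5 and -18.8 points, and in Ets1 14 of 28 windows rose in Sham offspring and 13 in PM offspring.

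Ikzf2, which encodes Helios, had no DMR but moved mostly downwards. Of its 24 windows 10 fell and 2 rose in Sham, and 18 fell and 0 rose in PM offspring. With centred libraries 7 fell and 2 rose in Sham, and 13 fell and 0 rose in PM offspring. The window with the smallest p lay in intron 3, on chromosome 1 from 69661245 to 69665290, where it overlaps Gm28112. Means were 85.2% ± 1.05 for Sham against 82.8% ± 2.04 for Sham-OVA, and 87.0% ± 1.54 for PM against 81.2% ± 1.78 for PM-OVA (SD over 7, 7, 7 and 8 libraries), with limma adjusted p = 0.0321 and 2.26e-06. The call in Sham offspring was lost without any 1 of Sham replicates 3 and 5 or Sham-OVA replicates 1, 5 and 6 (limma adjusted p up to 0.0811), and with centred libraries (limma adjusted p = 0.0575). The difference between these effects, -3.42 points, did not pass (interaction limma adjusted p = 0.571). Its largest differences were in the window from 69682977, which holds exons 1 to 3 and went from 24.8 to 17.3% in Sham and from 24.7 to 16.6% in PM offspring.

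Bach2, the longest of the genes, lost and gained methylation at different places. The largest loss was in intron 3, on chromosome 4 from 32424356 to 32426904. Libraries there ranged from 83.5 to 87.7% in Sham (median 85.3%), from 64.2 to 77.0% in Sham-OVA (median 68.2%), from 84.3 to 89.7% in PM (median 86.6%) and from 66.3 to 72.4% in PM-OVA (median 68.3%). The groups did not overlap, and the differences were -16.5 points (log2 ratio -1.35, SE 0.10, limma adjusted p = 8.41e-10) and -17.6 points (log2 ratio -1.47, SE 0.10, limma adjusted p = 2.46e-10). The adjoining window from 32420168 fell as well, at -9.03 and -9.24 points.

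Near the start of Bach2, in intron 1, the window from 32247785 to 32250548 went from a median of 37.8% (35.4 to 42.3%) in Sham to 22.7% (18.1 to 28.6%) in Sham-OVA, and from 35.8% (34.4 to 41.0%) in PM to 24.0% (20.8 to 31.3%) in PM-OVA. It carried 278 exonic bases of other Bach2 transcripts. The differences were -14.7 points in Sham (limma adjusted p = 6.16e-08) and -11.96 points in PM offspring (limma adjusted p = 5.29e-07). A further window of intron 1, from 32254624 to 32258351 and overlapping Bach2it1, fell by a size close to the minimum, at -10.20 and -10.36 points. It was under the minimum without any 1 of Sham replicates 5 and 6, Sham-OVA replicates 2 and 6 or PM replicates 2 and 5, at -9.31 to -9.97 points.

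Bach2 also gained methylation. The window from 32304977 to 32307930 in intron 1 had medians of 51.4% in Sham and 58.3% in Sham-OVA, and of 49.3% in PM and 61.3% in PM-OVA, without overlap. It rose by 9.65 points in Sham (limma adjusted p = 1.42e-05), just under the minimum, and by 11.5 points in PM offspring (limma adjusted p = 5.58e-07). The window from 32518432 to 32521911 in intron 4 rose by 10.6 points in Sham (limma adjusted p = 2.29e-06) and by 7.09 points in PM offspring (limma adjusted p = 2.02e-04), and its interaction did not pass (limma adjusted p = 0.707). The window from 32304977 kept its call in PM offspring without any 1 library, at 10.9 to 12.3 points. Both windows passed without the minimum in both kinds of offspring, but whether they reached it in Sham offspring depended on single libraries. The first reached it in Sham offspring, at 10.04 to 10.17 points, with centred libraries or without any 1 of Sham replicates 1 and 2 or Sham-OVA replicates 3, 4, 5 and 7. The second missed it in Sham offspring without Sham replicate 5 (9.90 points) or Sham-OVA replicate 2 (9.72 points). Over the 85 Bach2 windows, 16 rose and 29 fell in Sham, and 12 rose and 39 fell in PM offspring. Thus 52.9 and 60.0% passed, against 35.6 and 44.1% of all windows. With centred libraries 18 rose and 26 fell in Sham, and 16 rose and 26 fell in PM offspring.

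Ets1 rose more often than it fell in both kinds of offspring. Its DMR, on chromosome 9 from 32713996 to 32718305 in intron 1, had a median of 37.5% (35.5 to 40.7%) in Sham and 50.9% (47.4 to 54.8%) in Sham-OVA, without overlap. In PM the median was 40.0% (36.3 to 43.4%) and in PM-OVA 51.9% (42.4 to 54.9%), where 1 PM-OVA library lay within the PM range. The rise was 13.1 points (log2 ratio 0.75, SE 0.09, limma adjusted p = 3.96e-07) and 11.3 points (log2 ratio 0.65, SE 0.09, limma adjusted p = 1.29e-06). Of the 28 windows, 14 rose and 5 fell in Sham, and 13 rose and 7 fell in PM offspring, and with centred libraries the counts were 16 and 3, and 15 and 6. Without centring no other member had more rises than falls in both kinds of offspring, whereas with centring Tcf7, Lef1 and Satb1 did too.

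The Ets1 gains were spread over the gene. Upstream of the principal start, the window from 32636220 to 32641623 holds the start of the longest transcripts and went from 54.5 to 60.9% in Sham and from 55.1 to 60.1% in PM offspring. The window from 32646539 rose by 6.63 and 8.42 points and that from 32672697 by 6.99 and 6.65 points. The last window, which holds the end of exon 8, rose by 6.11 and 3.59 points. By contrast, the window from 32744543 in intron 6 fell, at -5.64 and -6.39 points, as did that from 32659209 at -6.29 and -4.79 points. The principal start, in the window from 32695979 to 32696519, stood at 0.394 to 0.787% in the 4 groups.

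Bcl11a, required for B cells, lost methylation over its long intron 2 and near its start. In intron 1, on chromosome 11 from 24081908 to 24084336, the median was 32.3% (26.8 to 34.8%) in Sham and 21.2% (16.1 to 23.2%) in Sham-OVA, and 31.5% (28.7 to 34.2%) in PM and 21.5% (18.0 to 24.4%) in PM-OVA. The groups did not overlap, and the differences were -10.3 points in Sham (limma adjusted p = 1.01e-06) and -9.65 points in PM offspring (limma adjusted p = 1.22e-06). Without Sham replicate 1 the difference in Sham offspring was -9.96 points and no longer reached the minimum. In intron 2, from 24127732 to 24133616, the median went from 81.3 to 70.6% in Sham and from 80.4 to 69.9% in PM offspring, differences of -11.3 points (limma adjusted p = 3.77e-09) and -10.26 points (limma adjusted p = 5.36e-09). The difference in PM offspring was under the minimum without PM replicate 2 (-9.92 points) and with centred libraries (-9.28 points). The 3 windows after it fell too, at -7.40 to -5.91 points in Sham and -8.01 to -6.16 points in PM offspring. In all, 15 of 26 windows fell and 2 rose in Sham, and 13 fell and 1 rose in PM offspring. With centred libraries 15 fell and 3 rose in Sham, and 10 fell and 1 rose in PM offspring.

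Its relative Bcl11b, a T cell commitment factor, had no DMR. Of 41 windows, 10 fell and 7 rose in Sham, and 20 fell and 3 rose in PM offspring. With centred libraries 6 fell and 7 rose in Sham, and 11 fell and 8 rose in PM offspring. Its direction in Sham offspring thus turned with the scaling, and the excess of falls in PM offspring became smaller. The smallest p was in intron 2, on chromosome 12 from 107966919 to 107969657, which fell in both, at -3.12 and -5.48 points (limma adjusted p = 3.01e-04 and 9.92e-08).

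Tcf7 and Lef1, the related partners of beta-catenin, had no DMR either. The smallest p of Lef1 was in intron 11, on chromosome 3 from 131208574 to 131212962, where libraries ranged from 81.6 to 84.1% in Sham, 71.1 to 77.8% in Sham-OVA, 80.8 to 84.8% in PM and 70.4 to 75.9% in PM-OVA. No library overlapped, and the differences were -8.44 points (limma adjusted p = 8.75e-08) and -8.32 points (limma adjusted p = 4.60e-08). Lef1 also rose, by 6.24 and 5.06 points in the window from 131187854 that holds exon 5. Over its 37 windows 7 rose and 8 fell in Sham, and 3 rose and 9 fell in PM offspring, but with centred libraries the rises were the more frequent (8 and 5 in Sham, 10 and 9 in PM offspring).

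For Tcf7 the smallest p was at the gene start. The window on chromosome 11 from 52282467 to 52283078 holds exon 1 and 50 CpG in 612 bp, and overlaps A630014C17Rik. Means were 0.644% ± 0.501 for Sham, 1.94% ± 0.330 for Sham-OVA, 0.944% ± 0.721 for PM and 2.09% ± 0.629 for PM-OVA (SD over 7, 7, 7 and 8 libraries). The libraries ranged from 0.194 to 1.443% in Sham and from 1.439 to 2.38% in Sham-OVA, which overlapped narrowly, and the ranges in PM and PM-OVA overlapped too. The rises of 1.29 and 1.14 points passed the test (limma adjusted p = 4.56e-04 and 0.00161) and left the window nearly unmethylated. Further rises were in intron 2, where the window from 52269057 went from 71.9 to 77.4% in Sham and from 73.0 to 77.1% in PM offspring. The window from 52275845 fell, at -3.04 and -3.64 points, and that from 52265104 fell in PM offspring, at -3.38 points. Of the 10 windows, 3 rose and 1 fell in Sham, and 2 rose and 2 fell in PM offspring. With centred libraries 3 rose and 0 fell in Sham, and 3 rose and 1 fell in PM offspring.
Tcf7 promoter (RefSeq, GRCm38.p6) within the window, chr11:52282546-52282845 (minus strand, CpG in capitals): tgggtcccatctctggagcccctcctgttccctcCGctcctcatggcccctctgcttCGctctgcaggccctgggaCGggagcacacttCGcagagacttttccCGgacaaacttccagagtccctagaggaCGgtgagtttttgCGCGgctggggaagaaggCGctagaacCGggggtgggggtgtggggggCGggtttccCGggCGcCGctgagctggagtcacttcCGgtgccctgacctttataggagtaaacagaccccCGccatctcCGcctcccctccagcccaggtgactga

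Satb1, the chromatin organiser, had the smallest share of windows that passed among the 9 genes. Of its 28 windows 3 rose and 2 fell in Sham, and 1 rose and 5 fell in PM offspring, so that 17.9% and 21.4% passed, below the shares of all windows. With centred libraries it was 5 and 2, and 6 and 2, so that the direction in PM offspring turned. The smallest p was in intron 9, on chromosome 17 from 51743495 to 51748239, which overlaps E430014B02Rik and rose by 4.59 and 2.80 points (limma adjusted p = 1.73e-04 and 0.0136).

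**Figure D3:**
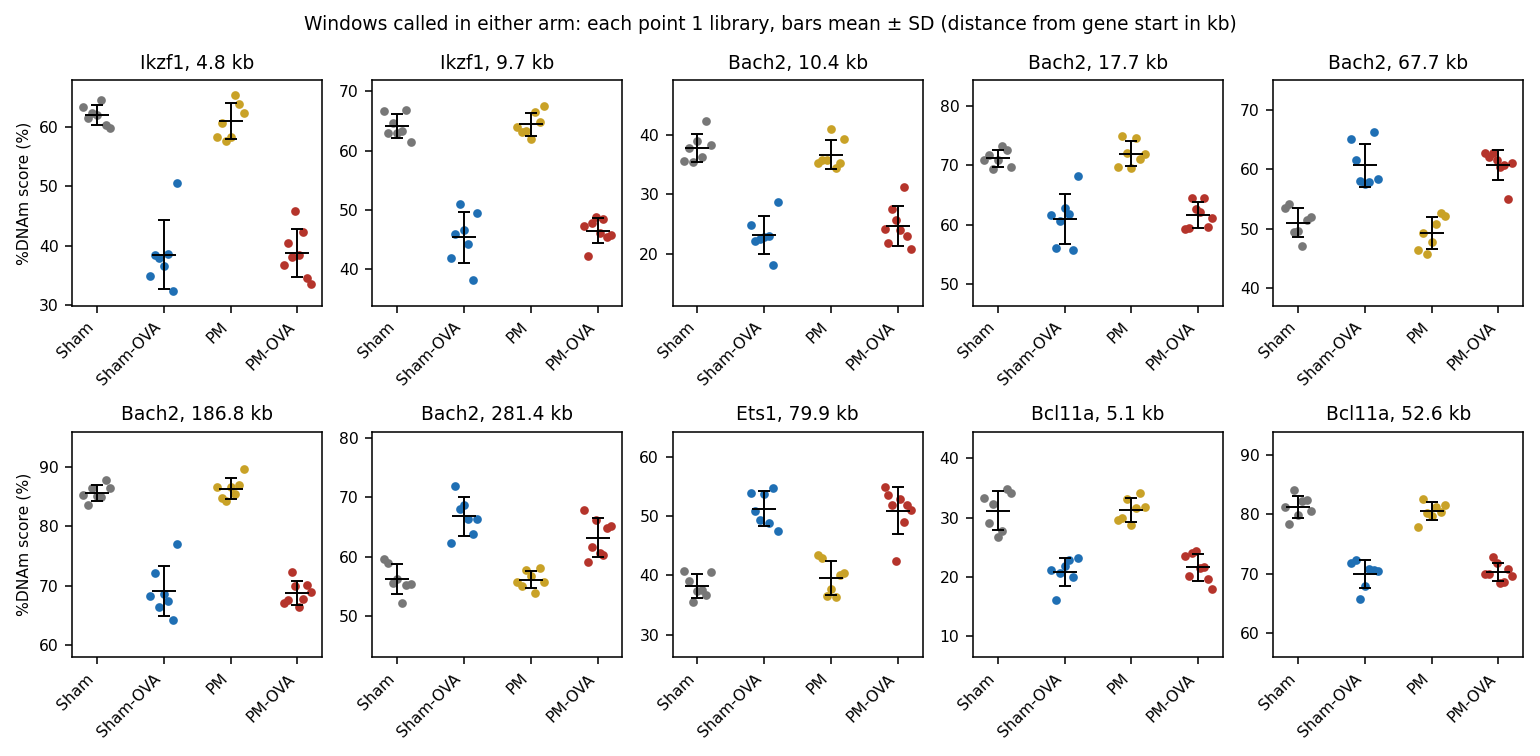
The %DNAm score (%) of each library in the 10 windows with a DMR call, by group, with the mean and SD as bars. The vertical axes span equal ranges and do not start at 0. The 7 windows that fell and the 3 that rose moved alike in Sham and PM offspring, and a single PM-OVA library of Ets1 at 42.4% overlaps the PM range.

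The start of the principal transcript lay in a nearly unmethylated window in each gene where a member window held it, apart from Ikzf2. Group means there were 0.0476 to 0.417% for Bach2, 0.242 to 1.17% for Bcl11a (the window from 24078082), 1.03 to 1.73% for Bcl11b and 0.0563 to 0.345% for Satb1 (from 51832494), and those of Ets1 and Tcf7 are given above. For Ikzf2 it lay in the window from 69682977, at 16.6 to 24.8%. No member window held this start for Ikzf1 or Lef1. The outermost annotated start lay in another window in 3 genes, at 54.5 to 60.9% for Ets1, 23.7 to 24.2% for Satb1 (from 51833176) and 0.160 to 0.668% for Ikzf2 (from 69686316). Windows with at least 30 CpG per kb numbered 33 among the members, of which 23 were under 10% in Sham. None was a DMR, where 1.23% of all such windows were in Sham and 0.913% in PM offspring. Without the minimum difference 4 rose (12.1%) and 3 fell (9.09%) in Sham offspring, where 19.5% of all such windows rose and 4.48% fell. In PM offspring 3 rose (9.09%) and 5 fell (15.2%), against 16.3 and 5.74%.

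RefSeq promoters were listed for 7 of the 9 genes, with 16 starts in all. They had a median of 11 CpG in 300 bases (range 2 to 52), against 7 over 32851 promoters. The ETS core CCGGAA, searched on both strands, was in 2 of the 16, those of Tcf7 and of an internal start of Bach2, and in 14.9% of all promoters. The TCF and LEF core CTTTGA was in 3 of the 16, in Bach2, Bcl11b and Lef1, and in 16% of all. TGTGGT, a RUNX core, and TGAGTCA, an AP-1 and BACH core, were in 0 of the 16 and in 16.8% and 5.2% of all. These are matches of letters within 300 bases.

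The mean over all windows of a gene gave the same picture at a smaller scale. In Sham, Lef1 stood highest at 78.6% ± 0.600 (SD, n = 7), followed by Ikzf2 at 73.5%, Bach2 at 72.0%, Bcl11a at 65.4%, Bcl11b at 64.4%, Ikzf1 at 59.1%, Satb1 at 56.2%, Tcf7 at 55.5% and Ets1 at 53.4%. The libraries of Ikzf2 and Bach2, of Bcl11a and Bcl11b, and of Satb1 and Tcf7 overlapped in this order. Ikzf1 went to 54.7% in Sham-OVA and from 59.3 to 54.9% in PM offspring, Bcl11a from 65.4 to 62.5% and from 65.3 to 62.4%, and Ets1 from 53.4 to 56.1% and from 54.4 to 55.9%. For Ikzf1 and Bcl11a the libraries of challenged and unchallenged offspring did not overlap in either kind. How many of all genes were separated in this way was not counted, so this is a description.

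**Figure D4:**
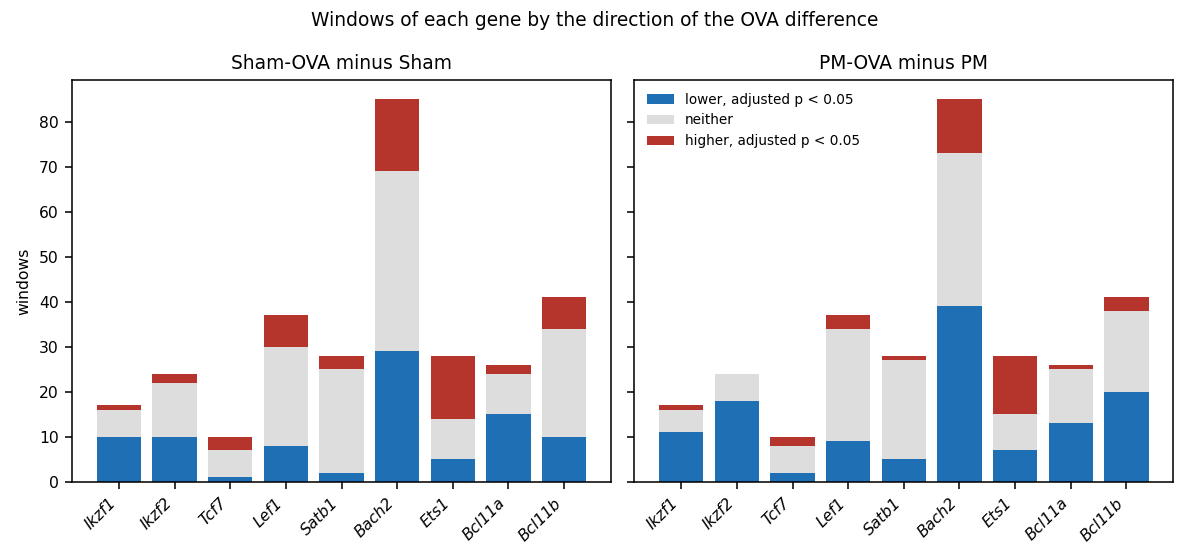
Number of windows of each gene that were lower, higher or neither after OVA at a limma adjusted p under 0.05, in Sham offspring (left) and PM offspring (right). Ets1 is the gene with more rises than falls in both panels (14 against 5, and 13 against 7), and Bcl11a, Ikzf1 and Ikzf2 fall mostly.

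Across libraries the genes did not move as a block. Relative to the mean over all windows, the gene means correlated between pairs of members with Pearson's r from -0.904 to 0.927 over the 29 libraries, which share the split by OVA. Ets1 had an r of -0.898 with the mean of the other members. The genes whose relative mean was most like that of the members together were Wnk2 (r = 0.923), Il21r (0.921), Cd47 (0.911), St8sia4 (0.911) and Gnptab (0.910), among 13274 genes with at least 5 windows. These correlations are given as a description.

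The response to OVA was similar in Sham and PM offspring. Of the 296 windows, 117 passed without the minimum difference in both with the same sign (39.5%), 35 up and 82 down, against 27.3% of all tested windows (70697). None passed with opposite signs. Alone or in both kinds, 35.6% of all tested windows passed in Sham and 44.1% in PM offspring. Among the members a further 28 passed in Sham and 43 in PM offspring alone. In all, 250 windows (84.5%) moved in the same direction, against 81.8% of all tested windows, and the differences correlated with r = 0.955 across the 296 windows, against 0.880 over all windows. The 2 comparisons share no library, but the windows of a gene are neighbours and both comparisons use the same challenge.

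**Figure D5:**
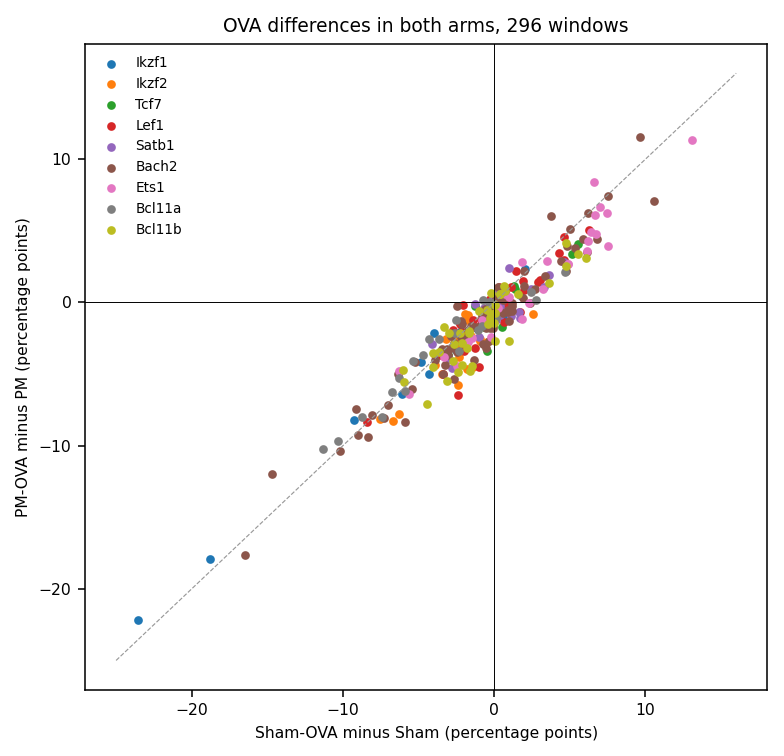
OVA difference in PM offspring (percentage points) against that in Sham offspring for the 296 windows, coloured by gene, with the line of equality dashed. Points lie along the line from the Ikzf1 window at -23.5 and -22.2 points to the Ets1 window at 13.1 and 11.3 points.

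Maternal exposure was tested next. For PM against Sham, 0 member windows were DMRs, as were 0% of all windows, and 18 (6.08%) had an unadjusted p under 0.05, against 5.79% of all windows. For PM-OVA against Sham-OVA it was 0 DMRs and 13 windows (4.39%), against 5.96%. For the interaction, the OVA difference in PM less that in Sham offspring, it was 0 DMRs and 25 windows (8.45%), against 7.4%. These counts were given by limma, and the smallest adjusted p over the members were 0.696, 0.805 and 0.569.

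The windows with the smallest p were small in size. Without OVA it was the Bcl11a window from 24078082 to 24079101, where Sham had 1.17% ± 0.896 and PM 0.242% ± 0.141 (SD over 7 libraries each). With OVA it was Bcl11a from 24088834 to 24093240, at 77.7% ± 1.93 (SD, n = 7) in Sham-OVA and 74.96% ± 1.33 (SD, n = 8) in PM-OVA. For the interaction it was Ets1 from 32694469 to 32695975, upstream of the principal start, where the OVA differences were -0.21 and -2.38 points. None passed the threshold after adjustment, and differences between the dams of -3.56 to 2.99 points covered all member windows.

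Genes related to the members both gained and lost methylation. Of the paralogues (231 windows), 3 were higher (1.30%) and 5 lower (2.16%) DMRs in Sham and 3 (1.30%) and 4 (1.73%) in PM offspring, against the 0.479 and 0.296% and the 0.263 and 0.321% of all tested windows given above, with a median difference of -0.69 and -1.42 points. Ikzf3, which encodes Aiolos, fell in both, at -15.7 and -14.7 points, in its window on chromosome 11 from 98474354 to 98477589. Fli1, the neighbour and relative of Ets1, fell, at -14.00 and -15.1 points, from 32508633 to 32512764 on chromosome 9, while Ets2 rose by 20.004 and 15.7 points from 95704181 to 95708363 on chromosome 16. Among 854 windows of 26 other lymphoid regulators, 19 were higher (2.22%) and 9 lower (1.05%) in Sham, and 14 (1.64%) and 11 (1.29%) in PM offspring, with medians of -0.24 and -0.70 points. Runx1 and Runx3 held 11 of the 19 higher DMRs and 9 of the 14. Runx1, a haematopoietic regulator, held both gains of up to 20.05 points and a window at -22.5 points in Sham offspring.

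Markers of cell types moved alongside. For lymphocyte markers (102 windows), 16 windows rose (15.7%) and 45 fell (44.1%) in Sham, where 13.3% of all tested windows rose and 22.3% fell. In PM offspring 8 rose (7.84%) and 51 fell (50%), against 9.26 and 34.8%. There were 0 higher and 6 lower DMRs (5.88%) in either, against 0.296 and 0.321% of all tested windows that were lower. These 6 lay in 4 of the 17 genes found, with 2 and 1 in Cytip and 1 and 2 in Rhoh. Cd3e and Cd3g had no window that passed. The lymphocyte markers were listed with earlier results of these data known, so these shares are a description. Their mean level ranged from 70.3 to 71.4% in Sham, 67.8 to 69.0% in Sham-OVA, 70.8 to 71.6% in PM and 67.6 to 69.3% in PM-OVA, so that challenged libraries lay below unchallenged ones. Cytip, which encodes a cytohesin-interacting protein of lymphocytes, fell in a window at -29.8 and -24.8 points. Myeloid markers (76 windows) ranged from 74.0 to 75.2%, 72.2 to 74.4%, 74.4 to 75.6% and 72.3 to 73.2% in the same order. Of these, 9 windows rose (11.8%) and 31 fell (40.8%) in Sham, and 5 rose (6.58%) and 37 fell (48.7%) in PM offspring. The falls were thus also above the shares of all tested windows given for the lymphocyte markers. There were 1 higher (1.32%) and 3 lower DMRs (3.95%) in Sham, and 1 (1.32%) and 2 (2.63%) in PM offspring. As a list, lung structural markers went the other way, with 61 of 181 windows higher (33.7%) and 30 lower (16.6%) in Sham offspring. In PM offspring 47 were higher (26.0%) and 39 lower (21.5%). The genes of this list differed. Of the 19 found, 4 had a lower mean after OVA in Sham and 6 in PM offspring. In Sham offspring Pecam1 had 11 windows higher and 4 lower, and Tek 10 and 1. By contrast, Myh11 had 1 higher and 8 lower, and Pdgfra 3 and 6. Lung structural markers held 3 higher DMRs and 1 lower in Sham, and 1 of each in PM offspring. Their means ranged from 61.9 to 63.7%, 62.9 to 64.7%, 61.9 to 64.3% and 62.7 to 64.4%. The values are methylation and not expression, and their part in the results for the 9 genes was not tested.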

How the data were processed

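DNA of 29 lung libraries underwent enzymatic methyl-sequencing. As stated in the labels and methods, reads were trimmed with Trim Galore, mapped to GRCm38 and called with DRAGEN, and the authors deposited the percent methylation per window overlapping a gene, without counts or coverage, so no counting error can be given. The study tested calls with edgeR, which these percentages do not allow.

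Percentages were turned into log2 ratios after adding 1 point to both sides and fitted over 4 groups with limma 3.58.1 (R 4.3.3), 2-sided, and p-values were adjusted after Benjamini-Hochberg over the 259167 windows with at least 3 values per group. All fits used 29 libraries, no covariate and no block. Labels do not say whether libraries share litters, so p-values cover the spread between libraries. Named were all windows called with the 10-point minimum, the smallest p of each other gene, gene starts, and the smallest p of each maternal contrast; other windows beside these were named after their values were seen. Annotation was GENCODE M21, sequences RefSeq (Python 3.11.15). On simulated data, 97.2% of windows changed by 12 points were recovered. The simulation changed Sham-OVA only, in windows of intermediate level and without those of widest spread. The members and gene lists were chosen with earlier results of these data known. Alternatives were another offset, scale, minimum, filter, prior, centring, blocks and leaving out libraries.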

Additional observations from a re-analysis of the deposited data

Results flagged for a closer look

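Over 128 groups of library values examined, 8 held a single library far from the others by Dixon's ratio (6.25%, where chance alone gives about 1 in 20). In Ikzf1 from 11687730, Sham-OVA replicate 7 stood at 50.557%, against 32.4 to 38.6% in the others, and without it the fall was 25.5 points. In Ets1 from 32713996, PM-OVA replicate 4 stood at 42.383%, against 49.0 to 54.9%, and without it the rise was 12.5 points. In Bach2 from 32304977, PM-OVA replicate 7 stood at 54.955%, against 60.3 to 62.7%. In Ikzf2 from 69661245, PM replicate 5 stood at 83.894%, against 87.0 to 88.7%. The mean over Satb1 windows was 55.14% in PM replicate 5, against 56.5 to 57.0%. At gene starts, Bach2 from 32238635 stood at 0.33333% in Sham replicate 7, where the others were at 0%, and at 1% in Sham-OVA replicate 6, against 0 to 0.056%, and Bcl11b from 108003190 stood at 2.8901% in Sham replicate 5, against 0.177 to 1.29%.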

How the results depend on the processing

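Member DMRs numbered 57 in Sham and 47 in PM offspring with a minimum of 5 points, where 5.96 and 5.89% of all windows were called, and 145 and 160 with no minimum, by construction of a looser call. With an adjusted p under 1e-06 they were 6 and 7. With a replicate block they were 9 and 8, the same as without it, and 0 for each maternal contrast and the interaction. For libraries with the same replicate number, the correlation of deviations over 42 pairs ran from -0.0705 to 0.130 and was over 0.1 in 3. Such correlations cannot show whether libraries share a litter or were handled together. Leaving out single libraries gave 6 to 10 DMRs in Sham and 6 to 9 in PM offspring, and 0 for the other contrasts. With centred libraries the median difference went to -0.12 points for Sham-OVA against Sham and to -0.27 points for PM-OVA against PM.

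Windows near 10 points crossed the minimum in some fits. Bach2 from 32254624 missed it at -9.80 in Sham and -9.38 in PM offspring when centred, and at -9.94 in PM offspring without both libraries named Rel. Bach2 from 32304977 reached it in Sham offspring, at 10.04 to 10.17 points, when centred or without any 1 of Sham replicates 1 and 2 or Sham-OVA replicates 3, 4, 5 and 7. Bach2 from 32518432 missed it at 9.90 points without Sham replicate 5 and 9.72 without Sham-OVA replicate 2. Bcl11a from 24081908 missed it in Sham offspring at -9.96 to -9.53 points without Sham replicates 1, 6 or 7 or Sham-OVA replicate 2, or when centred, and reached it in PM offspring at up to -10.08 points without PM replicate 4 or PM-OVA replicates 3 or 4. Bcl11a from 24127732 missed it in PM offspring at -9.92 points without PM replicate 2 and -9.28 when centred.

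Signs turned at windows close to no difference. In Sham offspring, leaving out single libraries gave -0.038 to 0.151 points for Bach2 from 32238635 and -0.483 to 0.115 for Ets1 from 32694469, which was at 0.19 when centred. In PM offspring, Ikzf2 from 69686316 was at -0.060 to 0.0208 in these fits, 0.96 when centred, 0.0027 without both PM-OVA libraries named Rel and 0.0027 with the block by library name (both chosen after seeing the data). Satb1 from 51833176 was at 0.71 when centred. The cause was not tested. The depth per window is not in the values used here.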
